A study of Mus musculus with 40 samples.

Results

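The 9 genes described here belong to the JAK-STAT route by which interferon-gamma and other cytokines change gene expression, and to its SOCS feedback. They were taken by name from the tables: Ifngr1 and Ifngr2 (the receptor chains for interferon-gamma), Jak2 (a receptor-bound kinase), Stat3 and Stat6 (transcription factors), Irf1 (a transcription factor that interferon-gamma induces), and Socs1, Socs3 and Cish (inhibitors that cytokine signals induce). All 9 were found in each of the 3 tables, among 21163 protein-coding genes. On mm10 the receptor genes lie at chr10:19591949-19610229 (Ifngr1) and chr16:91547072-91565623 (Ifngr2), and Jak2 at chr19:29251828-29313080. Stat3 lies at chr11:100885098-100939540, Stat6 at chr10:127642986-127660957 and Irf1 at chr11:53770014-53778374. The feedback genes lie at chr16:10782240-10785536 (Socs1), chr11:117966079-117970047 (Socs3) and chr9:107296026-107302784 (Cish).

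RNA came from sorted CD11b+ cells (microglia, monocytes, macrophages and other myeloid cells) of brain hemispheres of male mice. In the GL261 experiment at 21 days post-implantation (DPI), C57BL/6 mice carried GL261, a murine glioma line labelled with tdTomato and luciferase, and received water (vehicle), 7aaRGD or 7aaRAE, with naïve mice (no tumor) beside them. 7aaRGD is an integrin-blocking peptide, and 7aaRAE is a control peptide in which the RGD motif is replaced. Both were given at 2 mg/ml through osmotic pumps into the tumor, and each of the 3 samples per group pooled 2 animals. In the anti-PD-1 experiment at 28 DPI, each sample was 1 animal with a GL261 glioma, given vehicle (n = 4), 7aaRGD (n = 4), anti-PD-1 antibody at 10 mg/kg (n = 3) or 7aaRGD + anti-PD-1 (the combination, n = 3), and the study's methods name a control IgG where the antibody was not given. The labels of these 28 DPI samples give nude mice, whereas the study's methods describe C57BL/6 mice for this experiment. In the third experiment, athymic Nude-Foxn1nu mice, which lack mature T cells, carried U87-MG, a human glioma line, for 21 days and received vehicle, 7aaRGD or 7aaRAE (n = 3 each, 2 animals per sample). Of 40 samples in the labels, 35 were analysed, and the naïve nude mice and the fourth anti-PD-1 and combination samples were not analysed here.

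When interferon-gamma binds its receptor, JAK kinases on the receptor chains become active, and target genes, IRF1 among them, are switched on. STAT3 is the main signal of the IL-6 family and of IL-10, and STAT6 that of IL-4 and IL-13, which drive alternative activation of macrophages. SOCS1, SOCS3 and CISH are made in answer to these signals and block JAK kinases or receptors, which closes a negative feedback loop. In glioma, microglia and incoming monocytes both carry these receptors.

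The promoters of the induced members are shown because the letters that STAT and IRF proteins are known to bind can be read in them. Sequences are from RefSeq on GRCm38 (mm10, the build of the tables), for which all 9 members had an entry (10 entries, 2 of them for Irf1). 3 patterns were searched on both strands in the 250 bases before the start site. They were TTCNNNGAA (the GAS type bound by STAT dimers), TTC and GAA 4 bases apart (the spacing STAT6 prefers) and GAAA and GAAA 2 bases apart (an interferon-response type). Each stretch runs 5′ to 3′ on the strand of its gene, with matches in capitals. They lie at chr11:53769764-53770013 (+ strand) for Irf1 and chr16:10785537-10785786 (− strand) for Socs1, both just before the first annotated exon, and at chr11:117969452-117969616 (− strand) for Socs3, where the window is shown only as far as -86 because 77 of the bases after that lie in an annotated Socs3 exon. The RefSeq start of Socs3 lies inside the gene as the GENCODE annotation draws it, so this stretch is within the annotated gene. For Cish the 30 bases around the RefSeq start are shown, at chr9:107296649-107296678 (+ strand), which the annotation places within the first exon of a longer Cish transcript.
Irf1: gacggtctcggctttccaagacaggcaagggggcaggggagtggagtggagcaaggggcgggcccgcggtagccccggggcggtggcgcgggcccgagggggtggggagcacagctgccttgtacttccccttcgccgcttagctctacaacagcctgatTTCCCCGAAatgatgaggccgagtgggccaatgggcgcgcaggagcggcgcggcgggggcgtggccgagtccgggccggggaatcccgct
Socs1: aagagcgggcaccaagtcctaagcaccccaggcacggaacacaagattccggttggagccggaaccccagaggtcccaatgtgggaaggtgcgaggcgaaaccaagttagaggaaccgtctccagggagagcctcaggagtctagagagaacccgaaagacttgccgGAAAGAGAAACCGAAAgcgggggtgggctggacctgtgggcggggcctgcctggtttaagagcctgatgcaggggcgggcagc
Socs3: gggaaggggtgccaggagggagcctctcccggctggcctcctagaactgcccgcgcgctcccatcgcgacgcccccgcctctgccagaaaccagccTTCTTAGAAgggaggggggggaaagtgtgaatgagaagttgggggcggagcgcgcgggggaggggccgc
Cish: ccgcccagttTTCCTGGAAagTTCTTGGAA
Irf1 held TTCCCCGAA from -90 to -82 and Socs3 held TTCTTAGAA from -154 to -146, counted from the start site. Socs1 held overlapping GAAA repeats, GAAAGAGAAA from -83 to -74 and GAAACCGAAA from -77 to -68, and no TTCNNNGAA. The 2 matches of Cish lay after its start, from 1 to 9 and from 12 to 20. Ifngr2 held TTCCCGGGAA, with 4 bases between its ends, from -91 to -82. No match to any pattern was in the windows of Stat3, Stat6, Jak2 or Ifngr1, or in the second entry of Irf1. Among all 32851 promoter entries, 7.02% held TTCNNNGAA in these 250 bases, 5.85% held the form with 4 bases between, and 2.98% held the GAAA repeat. A match is a description of the letters, and binding was not measured here.

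Levels are given as RPKM (reads per kilobase of gene, scaled to the reads of the library, here the deposited value minus the constant of 2), which can be compared between genes. Differences are on the log2(RPKM + 1) scale, the first group minus the second, with the standard error (SE) and a p-value from limma adjusted over all genes tested (Benjamini-Hochberg). A gene is called where the adjusted p is under 0.05. Read counts are not in the tables, and the depth of each sample is unknown. Between 9198 and 9677 genes reached 1 RPKM in a sample, and between 3.13% and 8.78% of values lay under the constant. In bulk samples, fewer cells of a type and less RNA per cell cannot be told apart.

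Marker lists were read first, because the sorted cells differed in makeup. The labels of the 21 DPI samples name the tumor line as the cell type. Every sample carried the myeloid genes of the sort, which summed to 2370 to 4543 RPKM over 6 genes. In the GL261 experiment at 21 DPI and its naïve mice, the 8 microglia markers summed to 15638 to 16190 RPKM without a tumor and to 1294 to 1882 RPKM in vehicle gliomas. The 8 monocyte and macrophage markers summed to 396 to 434 RPKM in naïve mice and to 6188 to 6549 RPKM with vehicle. All 8 microglia markers were called lower and all 8 monocyte and macrophage markers higher with the tumor. In U87-MG gliomas the microglia markers summed to 6498 to 10563 RPKM and the monocyte and macrophage markers to 1444 to 4270 RPKM. The part of these differences in the results on the 9 genes was not tested.

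The first comparison asks what differs between CD11b+ cells of a GL261 glioma and of a naïve brain. In vehicle gliomas at 21 DPI, 8 of the 9 members were called, 6 higher and 2 lower, and 9 of 9 did not overlap between the groups, as was the case for 85.5% of all genes. The background in this comparison was wide. Of 9588 genes, 82.9% were called, 34.6% higher and 48.3% lower, and the median of all genes was -0.14, against 2.40 for the 9 members. Size, more than the count of calls, therefore describes the members. They were chosen with earlier results of these data known, so the contrast of medians is a description and not a test.

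Among the receptor chains, Ifngr1, which binds the ligand, stood at 368, 390 and 361 RPKM in naïve mice and at 143, 116 and 113 RPKM in vehicle gliomas. Every naïve sample was above every tumor sample, and the difference was -1.59 (SE 0.10, adjusted p = 1.26e-06), a level 3.01 times lower. Ifngr2, the signalling chain, stood at 59.1, 60.1 and 60.4 RPKM in naïve mice and at 62.5, 66.0 and 64.3 RPKM with vehicle. The groups did not overlap, and the difference of 0.10 (SE 0.05, adjusted p = 0.0875) was not called. With TMM rescaling of the samples, which moved the median of all genes from -0.14 to -0.02, the Ifngr2 difference was 0.24 and was called (adjusted p = 0.00249). The ligand-binding chain was thus the more abundant chain in every group, at 373 ± 15.3 RPKM (SD, n = 3) against 59.9 ± 0.67 RPKM in naïve mice and 124 ± 16.9 against 64.3 ± 1.78 RPKM with vehicle.

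Jak2, the kinase that serves the interferon-gamma receptor and several other cytokine receptors, stood at 11.5, 11.5 and 11.8 RPKM in naïve mice and at 60.1, 74.2 and 63.7 RPKM in vehicle gliomas. It was higher by 2.40 (SE 0.08, adjusted p = 6.22e-08), a ratio of means of 5.68. The transcription factors moved less. Stat3 stood at 25.3, 26.4 and 25 RPKM in naïve mice and at 42.9, 45.0 and 46.6 RPKM with vehicle, a rise of 0.79 (SE 0.05, adjusted p = 2.71e-06). Stat6 stood at 74.0, 71.2 and 72.8 RPKM in naïve mice and at 64.0, 61.1 and 64.5 RPKM with vehicle, a difference of -0.20 (SE 0.05, adjusted p = 0.00607). That call rests on the scaling, since TMM brought the Stat6 difference to -0.06 (adjusted p = 0.354).

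Irf1, an interferon-gamma target among the members, stood at 19.9, 20.8 and 22.0 RPKM in naïve mice. In vehicle gliomas it stood at 94.2, 158 and 150 RPKM, with the first vehicle sample well under the others. It was higher by 2.59 (SE 0.18, adjusted p = 2.68e-06), a ratio of means of 6.40.

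The feedback genes made the largest differences among the members. Socs1, which binds and inhibits JAK kinases after interferon signals, stood at 1.49, 1.24 and 1.15 RPKM in naïve mice and at 32.8, 59.7 and 45.7 RPKM in vehicle gliomas. The difference was 4.32 (SE 0.19, adjusted p = 2.25e-07), and the ratio of means was 35.6. Socs3, an inhibitor of signals through the IL-6 receptor subunit gp130, was the most abundant member in these gliomas. It stood at 39.1, 40.4 and 38.6 RPKM in naïve mice and at 349, 454 and 399 RPKM with vehicle, higher by 3.31 (SE 0.09, adjusted p = 3.01e-08). Cish, best known as a product of STAT5 signals, was near 0 in naïve mice, at 0.176, 0.177 and 0.201 RPKM, and stood at 13.6, 17.0 and 8.72 RPKM with vehicle, a difference of 3.53 (SE 0.20, adjusted p = 7.89e-07) that the pseudocount of 1 holds down. Immediate early genes, which also answer to tissue dissociation, moved in the same comparison. The 9 of them summed to 926 to 1048 RPKM in naïve mice and to 2506 to 3280 RPKM with vehicle, and their part in the Socs3 difference was not tested.

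**Figure D1:**
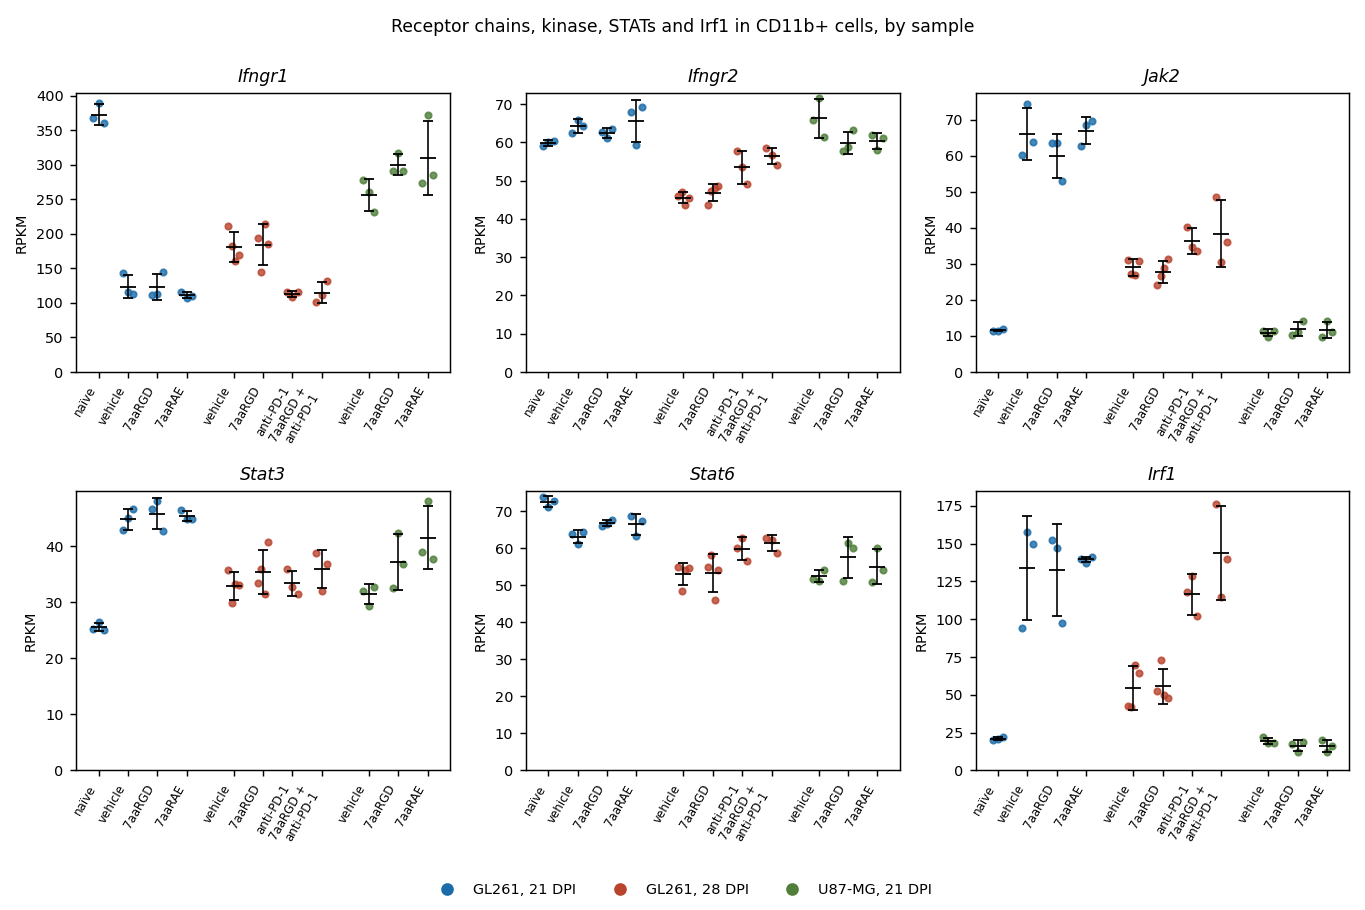
Levels (RPKM, linear axis from 0) of Ifngr1, Ifngr2, Jak2, Stat3, Stat6 and Irf1 in each CD11b+ sample, by group, with the mean and SD as black bars and the 3 experiments in colour (tables of different experiments were normalized apart). Ifngr1 was highest in naïve mice (361 to 390 RPKM) and Irf1 was highest in GL261 gliomas at 21 DPI and under anti-PD-1 at 28 DPI.

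The rest of the pathway was read from 9 lists of 128 genes. In vehicle against naïve mice, 101 of them were tested, of which 66 were called higher and 25 lower, with a median of 1.14. All 20 interferon-gamma targets tested were called higher, with a median of 3.41. Of the STAT3 targets 9 of 12 were higher and 3 lower. Fos and Junb are in this list and also among the 9 immediate early genes, 7 of which were called higher. The part of tissue dissociation in these calls was not tested. STAT6 targets were higher in 8 of 13 and lower in none, with a median of 3.74, the largest of the 9 lists. The cytokine receptors split, with 12 of 23 higher and 10 lower, as did the other negative regulators, with 7 of 16 in each direction. The ligands were mostly under the filter of a mean of 1 RPKM, and of the 5 tested 3 were higher and 1 lower. Over all genes 34.6% were called higher and 48.3% lower (82.9% in all), with a median of -0.14. Counted in both directions, the share of STAT6 targets called was thus below that of all genes. Their calls were all higher, though, and their median was far above that of all genes. The share of other negative regulators called was near that of all genes.

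By size, the 3 pathway genes with the largest rise were Arg1, Cxcl9 and Cxcl10. Arg1, an arginine-consuming enzyme and STAT6 target, went from 0.0748 ± 0.0367 to 757 ± 517 RPKM (SD, n = 3 each), a difference of 9.11 (SE 0.57, adjusted p = 1.65e-06), with vehicle samples spread from 201 to 1224 RPKM. Cxcl9 and Cxcl10, chemokines that attract T cells and are made after interferon signals, went from 0.433 ± 0.194 to 270 ± 94.1 RPKM and from 1.11 ± 0.183 to 238 ± 49.5 RPKM. The largest falls were in receptors of the IL-6 family. Il6st, which encodes gp130, went from 82.4 ± 3.86 to 16.5 ± 0.743 RPKM, a difference of -2.25 (SE 0.06, adjusted p = 2.29e-08). Il6ra went from 91.3 ± 2.01 to 27.1 ± 1.97 RPKM (-1.72, SE 0.06), and Lifr from 10.6 ± 0.604 to 2.97 ± 0.735 RPKM (-1.56, SE 0.12). The RNA of the receptor subunit that SOCS3 acts on was lower in the same samples in which Socs3 was higher. Microglia markers were also lower in these samples, and the part of cell makeup in these rises and falls was not tested.

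**Figure D2:**
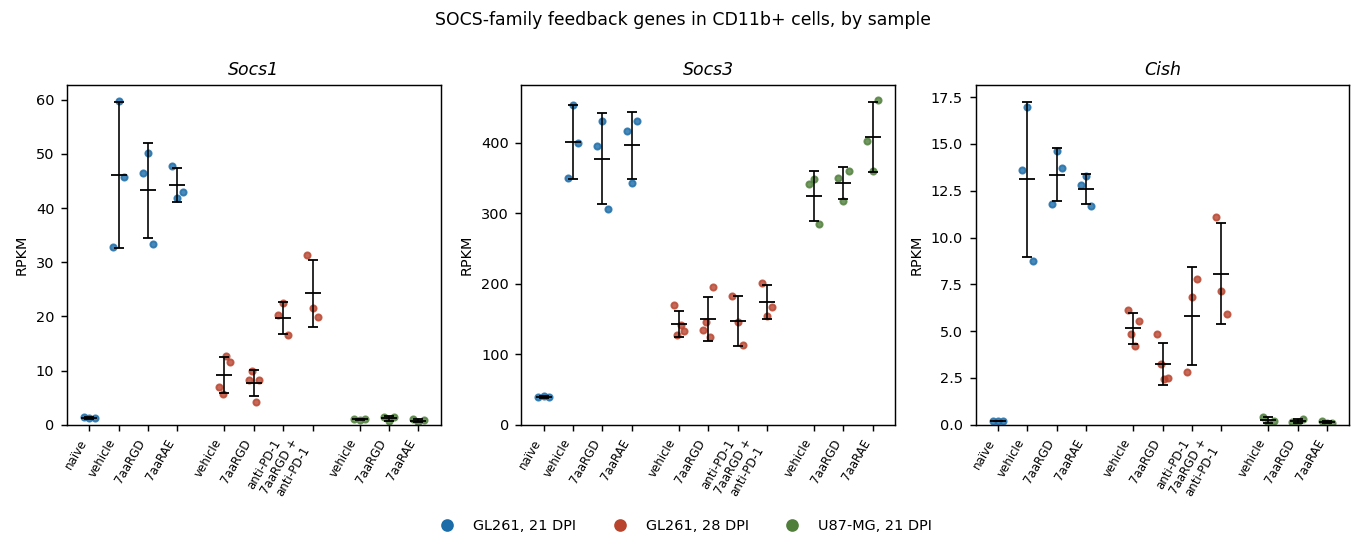
Levels (RPKM, linear axis from 0) of Socs1, Socs3 and Cish in each CD11b+ sample, with the mean and SD as black bars. Socs3 was high in GL261 gliomas at 21 DPI (306 to 454 RPKM) and in U87-MG gliomas (284 to 460 RPKM), whereas Socs1 and Cish stood at 4.25 to 59.7 RPKM and 2.42 to 17.0 RPKM in GL261 gliomas and under 1.5 RPKM in U87-MG gliomas.

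At 21 DPI the peptides were compared with vehicle and with each other in GL261 gliomas, at the same concentration and time. None of the 9 members was called for 7aaRGD against vehicle, where 0.15% of 9305 genes were, and none had an unadjusted p under 0.05. 7aaRAE against vehicle and 7aaRGD against 7aaRAE likewise called no member and no gene (0% in both), although limma gave 596 and 518 genes an unadjusted p below 0.05. For 7aaRGD the member differences ran from -0.14 for Jak2 to 0.08 for Stat6, and for 7aaRAE from -0.14 for Ifngr1 to 0.10 for Irf1.

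The change from RGD to RAE in the peptide went with no detected difference in these genes. Across the 9 members, 7aaRGD minus 7aaRAE lay between -0.16 (Jak2) and 0.13 (Ifngr1), with adjusted p-values of 0.992 and more. A p that misses the threshold does not show that the peptides act alike, and the 95% intervals leave room for some difference. They were narrow for Stat6, from -0.12 to 0.13, and Stat3, from -0.13 to 0.15. For Irf1 the interval ran from -0.57 to 0.37 and for Socs1 from -0.51 to 0.41. Jak2 lay between -0.38 and 0.06, and Ifngr1 between -0.14 and 0.40.

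Stat6 alone did not overlap between 7aaRGD and vehicle, against 17.7% of all genes. Its 7aaRGD samples had 66.1, 66.5 and 67.7 RPKM, against 61.1 to 64.5 RPKM in vehicle and 63.3 to 68.7 RPKM in 7aaRAE samples, and the difference from vehicle was 0.08 (SE 0.06, adjusted p = 0.574). No member was apart between 7aaRAE and vehicle (12.6% of genes were) or between the peptides (11.4%). Socs3 stood at 395, 431 and 306 RPKM with 7aaRGD and at 416, 342 and 430 RPKM with 7aaRAE. Cish stood at 11.8, 14.6 and 13.7 RPKM with 7aaRGD and at 12.8, 13.3 and 11.7 RPKM with 7aaRAE. T and NK cell markers summed to 7.85 to 25.2 RPKM with vehicle, 22.5 to 58.7 RPKM with 7aaRGD and 8.71 to 31.1 RPKM with 7aaRAE.

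The spread within the groups at 21 DPI was shared among members. The first vehicle sample and the third 7aaRGD sample had the lowest Irf1 of the 9 tumor samples, at 94.2 and 97.3 RPKM against 138 to 158 RPKM in the other 7. The same samples had the lowest Socs1, at 32.8 and 33.4 RPKM against 41.9 to 59.7 RPKM. They also had the highest Ifngr1, at 143 and 145 RPKM against 107 to 117 RPKM, and the lowest Jak2, at 60.1 and 53.0 RPKM. Ifng, the gene of interferon-gamma itself, was listed at 0.13 and 0.66 RPKM in these samples, and at 0.69 to 2.84 RPKM in the others. These values are RNA of the sorted cells, and interferon-gamma made by cells outside the sort was not measured here. These samples were singled out after their values were seen.

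At 28 DPI, the comparison of anti-PD-1 with vehicle asks what checkpoint blockade brought to the myeloid cells. Of the 9 members, 3 were called higher (Irf1, Socs1 and Ifngr2) and 1 lower (Ifngr1), where 10.9% of 9595 genes were called higher and 12.2% lower (23.1% in all). The median over the members was 0.17, against -0.01 over all genes.

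Irf1 stood at 42.7, 41.9, 69.8 and 64.3 RPKM with vehicle and at 118, 129 and 102 RPKM with anti-PD-1. The groups were far apart, with a difference of 1.11 (SE 0.20, adjusted p = 0.00223) and a ratio of means of 2.13. Socs1 followed, at 6.95, 5.64, 12.6 and 11.5 RPKM with vehicle and at 20.3, 22.4 and 16.5 RPKM with anti-PD-1, a difference of 1.08 (SE 0.28, adjusted p = 0.0135) and a ratio of 2.15. Ifngr1 went the other way. It stood at 211, 183, 161 and 170 RPKM with vehicle and at 116, 108 and 116 RPKM with anti-PD-1, a difference of -0.66 (SE 0.13, adjusted p = 0.00308) and a level 1.60 times lower. Ifngr2 stood at 45.9, 47.1, 43.6 and 45.6 RPKM with vehicle and at 57.7, 53.6 and 49.2 RPKM with anti-PD-1, higher by 0.23 (SE 0.07, adjusted p = 0.025).

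Jak2 and Stat6 were not called but did not overlap between anti-PD-1 and vehicle, which made 6 of 9 members without overlap, against 32.5% of all genes. Jak2 stood at 40.3, 34.8 and 33.5 RPKM with anti-PD-1 against 26.8 to 31.1 RPKM with vehicle (0.31, SE 0.13, adjusted p = 0.112). Stat6 stood at 60.2, 62.8 and 56.6 RPKM against 48.6 to 55.1 RPKM (0.17, SE 0.08, adjusted p = 0.139). Stat3, Socs3 and Cish overlapped with vehicle, with differences of 0.02, 0.02 and 0.07 and adjusted p-values from 0.885 to 0.937.

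Without the second anti-PD-1 sample 2 of the 9 members were called, Irf1 and Ifngr1, and Socs1 then had a difference of 0.99 (adjusted p = 0.0594). The Ifngr2 call was also lost without anti-PD-1 sample 1 or vehicle sample 3 (adjusted p = 0.109 and 0.0526).

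Markers of other cells moved with anti-PD-1. The 8 monocyte and macrophage markers summed to 2934 to 3543 RPKM with vehicle and to 4428 to 6625 RPKM with anti-PD-1, with 5 of 8 called higher. The microglia markers summed to 1533 to 2167 and 1715 to 2470 RPKM, with 1 of 8 called. The 10 T and NK cell markers summed to 3.92 to 12.3 RPKM with vehicle and to 48.8, 68.1 and 3.51 RPKM with anti-PD-1, and Ifng was listed at 0.01 to 0.11 RPKM with vehicle and at 1.01, 1.87 and 0 RPKM with anti-PD-1. The anti-PD-1 sample with Ifng listed at 0 and a T and NK sum of 3.51 RPKM, singled out after its values were seen, had 102 RPKM of Irf1, 16.5 RPKM of Socs1 and 116 RPKM of Ifngr1. The 6 dendritic cell markers summed to 1.0 to 2.86 RPKM with vehicle and 4.04 to 17.4 RPKM with anti-PD-1. The part of monocytes, macrophages, dendritic cells, T cells and NK cells in these results was not tested.

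The combination of 7aaRGD and anti-PD-1 called 6 of 9 members against vehicle, 5 higher and 1 lower, where 17.5% of genes were called higher and 25.7% lower (43.2% in all). With TMM rescaling the calls over all genes were 2083 higher and 2131 lower, in place of 1681 and 2466. Irf1 stood at 177, 115 and 140 RPKM, higher than vehicle by 1.39 (SE 0.20, adjusted p = 0.000151). Socs1 stood at 31.4, 21.6 and 19.9 RPKM (1.35, SE 0.28, adjusted p = 0.00163), and Ifngr2 at 58.5, 56.7 and 54.2 RPKM (0.30, SE 0.07, adjusted p = 0.00229). Ifngr1 stood at 102, 112 and 131 RPKM, below vehicle by -0.65 (SE 0.13, adjusted p = 0.00134). No sample of these 4 genes overlapped with vehicle, nor did those of Stat6, against 48.7% of all genes.

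Jak2 and Stat6 were called with less margin. Jak2 stood at 48.5, 30.4 and 36.0 RPKM, of which the second lay within the range of vehicle (0.37, SE 0.13, adjusted p = 0.0399). Stat6 stood at 62.9, 62.3 and 58.9 RPKM (0.21, SE 0.08, adjusted p = 0.0497). The Stat6 call was lost without any 1 of the 7 samples, and the Jak2 call was lost without vehicle sample 2 or 3 or combination sample 1 or 3, with a Jak2 difference of 0.19 without combination sample 1. Socs3 stood at 201, 155 and 167 RPKM (0.29, adjusted p = 0.196), Cish at 11.1, 7.13 and 5.94 RPKM (0.52, adjusted p = 0.138) and Stat3 at 38.8, 32.1 and 36.9 RPKM (0.12, adjusted p = 0.321), all overlapping with vehicle. Monocyte and macrophage markers summed to 5829 to 7795 RPKM and T and NK markers to 26.4 to 80.8 RPKM in the combination, and 5 of 8 microglia markers were called higher.

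**Figure D3:**
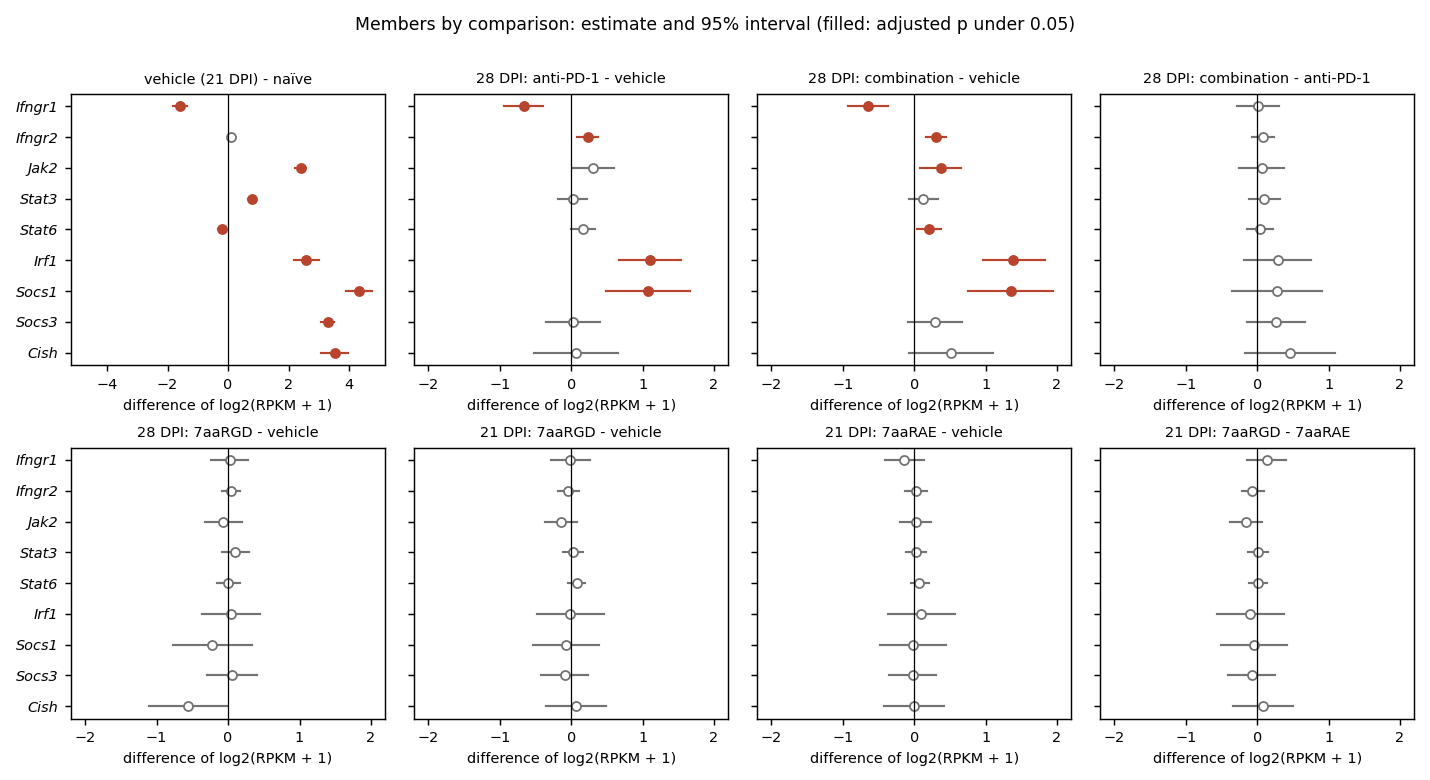
Difference of log2(RPKM + 1) with its 95% interval for the 9 members in 8 comparisons, first group minus second, with filled red points where the adjusted p was under 0.05 (the first panel has a wider axis). Irf1 and Socs1 rose and Ifngr1 fell against vehicle under anti-PD-1 and under the combination, and no member was called for either peptide alone.

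Adding 7aaRGD to anti-PD-1 called none of the 9 members against anti-PD-1 alone, where 0.0417% of genes were called (2 higher and 2 lower, or 3 and 1 with TMM) and none of the 9 had an unadjusted p under 0.05. All 9 estimates were above 0, from 0.01 for Ifngr1 to 0.46 for Cish, and all 9 overlapped between the groups (21.4% of genes did not). The widest intervals were those of Cish, from -0.17 to 1.09, and Socs1, from -0.36 to 0.91, and for Irf1 the interval ran from -0.18 to 0.75. The interaction term, which asks whether the combination departs from the sum of both treatments on the log2 scale, called no member and 0% of genes, with 774 genes at an unadjusted p under 0.05. Cish had the largest interaction of the members, 1.02 (SE 0.39, 95% interval 0.18 to 1.85, unadjusted p = 0.0206, adjusted p = 0.594).

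7aaRGD alone at 28 DPI called no member against vehicle, where 0.803% of genes were called. Those 77 calls fell to 0 without any 1 of the 4 vehicle samples, without 7aaRGD sample 1 or 4, with the replicate number as a block, with only these groups fitted, or with 1 residual degree of freedom less. None of the 9 was apart between the groups, against 7.98% of genes. Cish was the lowest, at 4.86, 3.25, 2.42 and 2.49 RPKM with 7aaRGD and 6.11, 4.82, 4.2 and 5.52 RPKM with vehicle, a difference of -0.56 (95% interval -1.11 to -0.01, adjusted p = 0.333). The other 8 lay between -0.22 for Socs1 and 0.10 for Stat3.

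Set against 7aaRGD alone, the combination called 6 of 9 members, 5 higher and 1 lower, where 12.9% of genes were higher and 23.5% lower (36.5% in all). With TMM rescaling the calls over all genes were 1629 higher and 1642 lower, against 1239 and 2259 without it. Socs1 was higher by 1.58 (SE 0.28, adjusted p = 0.000878), from 8.18, 9.85, 4.25 and 8.23 RPKM with 7aaRGD. Irf1 was higher by 1.35 (SE 0.20, adjusted p = 0.000319), from 52.4, 72.9, 49.7 and 47.6 RPKM. Cish was called in this comparison, higher by 1.08 (SE 0.27, adjusted p = 0.00812), a ratio of means of 2.48. Jak2 was higher by 0.43 (SE 0.13, adjusted p = 0.0221), a call lost without the first combination sample or the first 7aaRGD sample. Ifngr2 was higher by 0.26 (SE 0.07, adjusted p = 0.007) and Ifngr1 lower, at -0.67 (SE 0.13, adjusted p = 0.00156), from 195, 144, 214 and 185 RPKM. Stat6 was not called (0.21, SE 0.08, adjusted p = 0.0564) but did not overlap, nor did 5 of the called members, against 40.3% of all genes. The 3 comparisons with vehicle share its samples, and both comparisons of the combination share its 3.

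By mean level at 28 DPI, the groups fell into 2 tiers for Irf1, Socs1, Ifngr1 and, with a narrow gap, Ifngr2. Irf1 ran from the combination (144 ± 31.1 RPKM) and anti-PD-1 (116 ± 13.4) to 7aaRGD (55.7 ± 11.7) and vehicle (54.7 ± 14.4), and only the step from anti-PD-1 to 7aaRGD was without overlap. Ifngr1 ran from 7aaRGD (185 ± 29.5 RPKM) and vehicle (181 ± 21.9) to the combination (115 ± 14.8) and anti-PD-1 (113 ± 4.67), with a gap between vehicle and the combination. Ifngr2 ran from the combination (56.5 ± 2.13 RPKM) and anti-PD-1 (53.5 ± 4.29) to 7aaRGD (46.8 ± 2.2) and vehicle (45.6 ± 1.47). Its lowest anti-PD-1 sample had 49.2 RPKM and its highest 7aaRGD sample 48.5 RPKM. For Stat3 and Socs3 every group overlapped with the next.

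Among the pathway lists, the interferon-gamma targets stood out by count at 28 DPI. Of 20 tested, 19 were called higher with anti-PD-1 against vehicle (median 0.82), 19 with the combination against vehicle (median 1.06) and 20 with the combination against 7aaRGD (median 1.07), and none was lower. Without the second vehicle sample 12 of the 20 were called with anti-PD-1. STAT3 targets were called in 2 of 12 with anti-PD-1 and, with the combination, 3 were higher and 2 lower. STAT6 targets were higher in 4 of 13 with anti-PD-1 and in 8 of 13 with the combination, where 1 was lower. The other negative regulators gave 4 higher and 1 lower of 16 with anti-PD-1 and 5 in each direction with the combination. Over all genes 23.1% were called with anti-PD-1 and 43.2% with the combination, so the shares of STAT3 targets called were near the background. With 7aaRGD alone 1 of 100 pathway genes was called, Il21r, the receptor of IL-21, at 40.0 ± 2.31 against 30.6 ± 0.765 RPKM (SD, n = 4 each; 0.37, SE 0.06, adjusted p = 0.0253). That call is lost in each of the fits in which no gene is called, among them those without any 1 vehicle sample.

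Nos2, which encodes inducible nitric oxide synthase, had the largest rise of the pathway genes under anti-PD-1. It stood at 3.61 ± 0.993 RPKM with vehicle (n = 4), 23.2 ± 9.49 with anti-PD-1 (n = 3) and 54.7 ± 12.1 with the combination (n = 3), differences of 2.35 (adjusted p = 0.000146) and 3.60 (adjusted p = 1.23e-06) from vehicle. Cd209a, a lectin of monocyte-derived dendritic cells, and Pdcd1lg2, which encodes the PD-1 ligand PD-L2, followed with anti-PD-1 (1.89 and 1.73). Both were widely spread there, Cd209a from 1.07 to 10.3 RPKM and Pdcd1lg2 from 5.23 to 34.1 RPKM, and the lowest Pdcd1lg2 sample lay within the vehicle range of 2.63 to 6.95 RPKM. Ccl22, a chemokine, went from 1.27 ± 0.506 with vehicle to 13.4 ± 1.29 RPKM with the combination (2.68, adjusted p = 4.13e-05), and Cd209a from 0.202 ± 0.4 to 6.24 ± 3.0 RPKM (2.56). Against 7aaRGD alone, the largest rises with the combination were those of Nos2 (3.67), Pdcd1lg2 (2.98) and Ccl22 (2.83).

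Falls were smaller. With anti-PD-1 the 3 pathway genes that were lower were Il6ra (-0.31), Il11ra1 (-0.26) and Pias2 (-0.25). With the combination the largest falls were in Lcn2, a STAT3 target (-1.31 against vehicle), Mrc1, the mannose receptor (-1.29), and Lifr, the receptor of leukemia inhibitory factor (-1.23). Mean Lifr was 8.15 ± 1.2 RPKM in vehicle samples, 12.5 ± 3.02 RPKM in 7aaRGD samples and 2.87 ± 0.173 RPKM in the combination, where it was lower than with 7aaRGD alone by -1.78 (adjusted p = 0.00018). The 7 neutrophil markers summed to 152 to 358 RPKM with vehicle and to 81.1 to 191 RPKM with the combination, with 1 called lower. Their part in these falls was not tested.

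**Figure D4:**
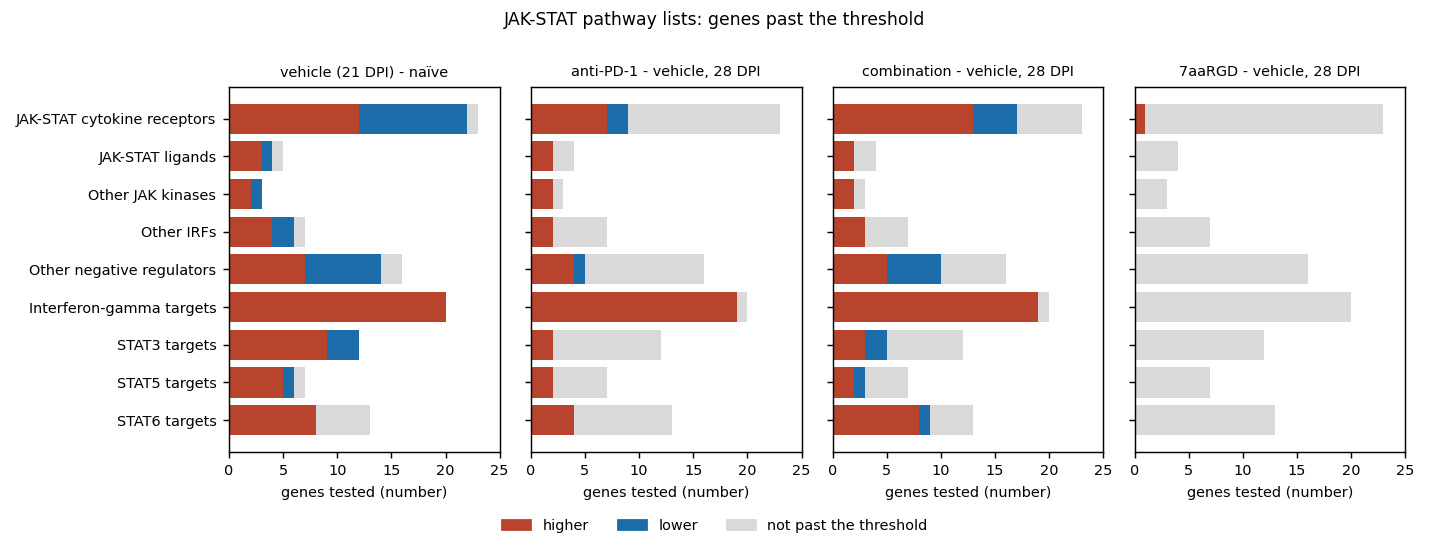
Number of genes tested in each of the 9 pathway lists, called higher (red), lower (blue) or not past the threshold (grey), in 4 comparisons. The interferon-gamma targets were called higher in 20, 19 and 19 of 20 with vehicle against naïve, anti-PD-1 and the combination, and 1 pathway gene was called with 7aaRGD alone, a call lost without any 1 vehicle sample.

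In U87-MG gliomas the members were at other levels than in GL261 gliomas, and values are set side by side with no test because the tables were normalized apart and the hosts and tumors differ. Socs3 stood at 342, 348 and 284 RPKM with vehicle, beside 349 to 454 RPKM in vehicle GL261 gliomas at the same day and 169, 127, 141 and 133 RPKM in those at 28 DPI. Socs1 and Cish, in contrast, stood at 1.07, 0.821 and 1.02 RPKM and at 0.431, 0.112 and 0.21 RPKM, under the filter, and were not tested. Irf1 stood at 21.8, 18.2 and 18.1 RPKM and Jak2 at 11.5, 9.82 and 11.5 RPKM, near the naïve mice of the GL261 experiment (19.9 to 22.0 and 11.5 to 11.8 RPKM). Ifngr1 stood at 278, 261 and 232 RPKM, between the naïve and the GL261 samples.

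Neither peptide called a member in U87-MG gliomas among the 7 tested, where 0% of 9521 genes were called for 7aaRGD against vehicle, 0.0105% for 7aaRAE against vehicle and 0% for 7aaRGD against 7aaRAE. Before adjustment, 360, 735 and 317 genes were below 0.05 in limma, among them 0, 2 and 0 members. Ifngr1 stood at 291, 317 and 291 RPKM with 7aaRGD, above every vehicle sample (0.23, SE 0.13, adjusted p = 0.938), and was the only member apart there, against 10.8% of genes. With 7aaRAE, Ifngr1 stood at 273, 372 and 285 RPKM and overlapped with vehicle, with a similar difference of 0.26 (95% interval -0.03 to 0.55). For 7aaRGD minus 7aaRAE the Ifngr1 difference was -0.04 (95% interval -0.33 to 0.25).

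With 7aaRAE, 2 members did not overlap with vehicle, against 16.5% of genes. Stat3 stood at 38.9, 48.0 and 37.7 RPKM against 32.1, 29.4 and 32.8 RPKM (0.38, SE 0.12, adjusted p = 0.492), and Socs3 at 403, 360 and 460 RPKM against 284 to 348 RPKM (0.33, SE 0.12, adjusted p = 0.545). None was apart between the peptides (6.38% of genes were), where the differences ran from -0.24 for Socs3 (95% interval -0.52 to 0.03) to 0.06 for Stat6. Beside this, the 1 gene called with 7aaRAE was a member of the receptor list, Il15ra, the IL-15 receptor chain, at 5.96 ± 0.507 against 1.78 ± 0.151 RPKM (1.32, SE 0.10, adjusted p = 0.0032).

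The most similar genes over the 14 samples of the anti-PD-1 experiment were sought among the 6174 genes whose mean reached 5 RPKM, by Pearson's r of log2(RPKM + 1). These samples share groups, so r describes the pattern and is not a test. Irf1 ran closest to Samhd1 (r = 0.984) and Acod1 (0.978), and Socs1 to Nmi (0.979) and Ptpn2 (0.969). Jak2 ran closest to Csf2rb (0.932) and to Birc3 (0.928). Stat3 and Socs3 were each other's closest gene (0.878), and Slc12a4 was the next for both (0.871 and 0.865). Ifngr1 was closest to Peli2 (0.97) and Fbxl20 (0.965), Ifngr2 to Irak3 (0.965) and App (0.965), Stat6 to Ehbp1l1 (0.955) and Dck (0.951), and Cish to Mitf (0.903) and Pygl (0.901).

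**Figure D5:**
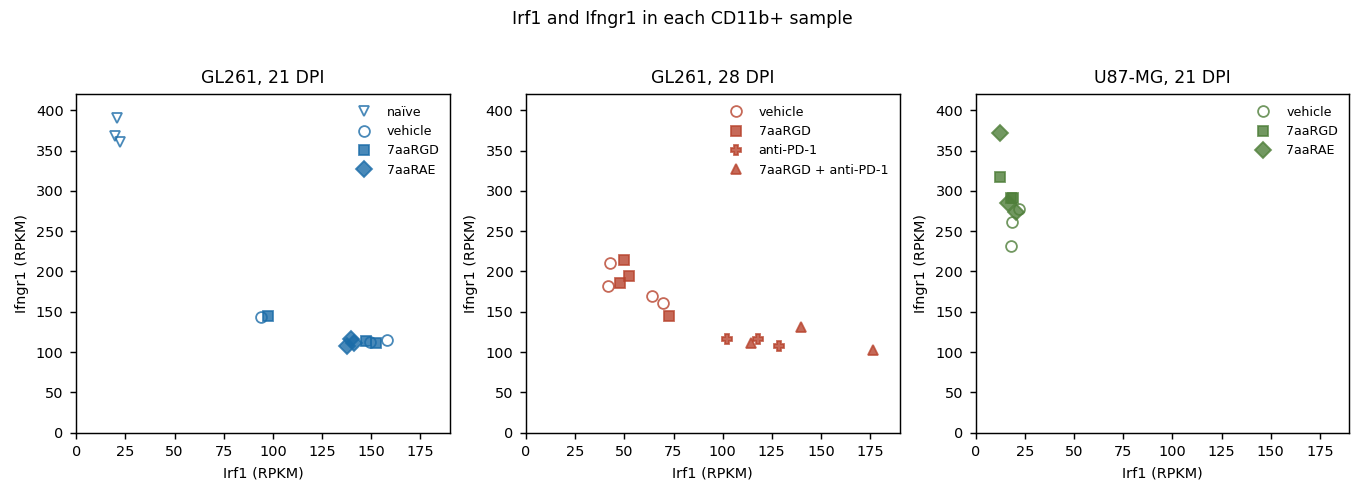
Irf1 against Ifngr1 (both RPKM, linear axes) in each CD11b+ sample of the 3 experiments, with a symbol for each group. Naïve mice had the least Irf1 and the most Ifngr1 of the GL261 tables (19.9 to 22.0 and 361 to 390 RPKM), the combination lay at 115 to 177 and 102 to 131 RPKM, and in U87-MG gliomas Irf1 stayed between 12.2 and 21.8 RPKM.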

How the data were processed

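RNA-seq of sorted CD11b+ cells was analysed from 3 deposited tables. The submitters' processing notes name Trimmomatic, STAR, HTSeq 0.11.1 and the mm10 build. The deposited values are RPKM plus a constant of 2, as read from the values: rows without signal hold exactly 2, and what remains, weighted by exonic length, adds up to similar totals across samples. The constant was subtracted. The normalization and the cause of values under the constant are not given in the sources used here. Depth is unknown and read counts could not be recovered, so count models were not used. On the log2 scale, differences between replicates lack 1 dimension in both GL261 tables (7 of 8 and 9 of 10) and none in the U87-MG table (6 of 6), which the sources used here do not account for, and p-values may be too small.

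Of 54513 rows, 89.85% matched the GENCODE annotation of mm10, and 21163 protein-coding genes were kept. log2(RPKM + 1) was fitted with limma 3.58.1 in R 4.3.3 (lmFit, eBayes with trend) on genes whose mean reached 1 RPKM among the fitted samples, with Benjamini-Hochberg adjustment and a threshold of 0.05. Naïve mice were fitted with vehicle alone and the other groups of an experiment together. The tables' headers for U87-MG repeat 1 name per group, so these columns carry a group and no number. Alternatives were pseudocounts of 0.1 and 5, no filter or a mean of 5 RPKM, TMM factors, no trend, only the groups compared, naïve mice added, a replicate block, 1 residual degree of freedom less, each sample left out and, chosen after seeing the data, a covariate for the 3 U87-MG columns with fewer values under the constant. Samples at 21 DPI pool 2 animals each and those at 28 DPI are 1 animal each, per the extraction protocol in the labels. The script was tested on simulated data.

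The members, pathway lists and marker lists were chosen with earlier results of these data known, and 1 further pathway list is not reported here. A fold change is given for a member that is called or whose groups do not overlap, and for up to 3 pathway genes per direction with the largest change among those called. Further members are given by range, as are a few not called for which the interval was of use. The 2 most similar genes per member were named.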

Additional observations from a re-analysis of the deposited data

Results flagged for a closer look

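Among the 18 sets of 4 samples examined (9 genes in vehicle and in 7aaRGD at 28 DPI), 1 held a sample far from the others. Stat6 in the second vehicle sample stood at 48.6 RPKM, against 54.3 to 55.1 RPKM in the other 3, a gap that is large for the range of 4 values. Chance flags about 1 in 20 such sets, so 1 in 18 is near what chance gives. Without this sample the Stat6 difference of the combination from vehicle was 0.16 (adjusted p = 0.131) in place of 0.21.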

How the results depend on the processing

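Among the member differences that were called or without overlap, none changed direction under the alternatives run. Of 488 such values under another setting, 455 kept their side of the threshold, 28 lost the call and 5 gained one. Counts of members called stayed within 1.5 times the reported count under every setting other than leaving out a sample. For anti-PD-1 against vehicle, leaving out each sample in turn gave 2 to 4 members called, the 2 without the second anti-PD-1 sample. Across the other comparisons it gave 8 for vehicle against naïve, 4 to 5 for the combination against vehicle, 5 to 7 for the combination against 7aaRGD, and 0 elsewhere. The calls lost were those of Stat6 (vehicle against naïve with TMM; the combination against vehicle with a pseudocount of 5, no filter, no trend, 1 residual degree of freedom less or any sample left out), of Jak2 in the combination, and of Ifngr2 and Socs1 with anti-PD-1. The cause was not tested. Small counts over all genes moved most. For 7aaRGD against vehicle at 21 DPI, 13 higher and 1 lower became 72 and 51 without vehicle sample 3, and 0 without any 1 7aaRGD sample or with the replicate block. For the combination against anti-PD-1, 2 and 2 became 8 higher and 18 lower without combination sample 2. Samples with the same replicate number mostly did not deviate alike. In the GL261 experiment at 21 DPI, naïve mice included, their residuals correlated above 0.1 for 1 pair among 18 (from -0.774 to 0.12). At 28 DPI this held for 3 pairs among 19 (from -0.499 to 0.367). The strongest correlations were negative, and their cause was not tested. With the replicate number as a block, 28 of 29 member differences kept their side, and the Stat6 difference of the combination from vehicle was 0.22 (adjusted p = 0.0584). No paired analysis was possible for U87-MG because its columns carry no numbers. Depth per sample is unknown, so levels near 0, such as Cish and Socs1 in U87-MG gliomas, cannot be told from none.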

Other observations

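Stat3 and Socs3 were ordered alike within the groups at 28 DPI. Of 18 pairs of samples of the same group, the sample with more Stat3 had more Socs3 in 18. This held for 9 of 12 pairs in the GL261 experiment at 21 DPI, pairs of naïve mice included, and for 1 of 9 pairs in U87-MG gliomas. For Socs1 and Ifngr1 the order was opposite in 16 of 18 pairs at 28 DPI, in 5 of 12 at 21 DPI and in 6 of 9 in U87-MG gliomas. These pairs of genes were chosen after their values were seen, samples recur among the pairs, and no test was run.

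Groups with Ifng near 0 had different levels of Irf1. At 28 DPI the vehicle samples had Ifng at 0.01 to 0.11 RPKM and Irf1 at 41.9 to 69.8 RPKM, whereas naïve mice of the other GL261 table had Ifng at -0.05 to 0.19 RPKM (a negative value lies under the constant) and Irf1 at 19.9 to 22.0 RPKM. U87-MG gliomas had Ifng at 0.21 to 0.32 RPKM with vehicle and Irf1 at 18.1 to 21.8 RPKM. The tables were normalized apart, so these values are set side by side only. Ifng was read from sorted CD11b+ cells, so it does not show how much interferon-gamma from other cells reached them.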
